A study of Homo sapiens with 22 samples.

Results

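The genes of human chromosome 13 were followed here as a set in HN-6, an established human line of head and neck squamous carcinoma. A gene was a member when the first chromosome entry of its row in the deposited antisense-oligonucleotide table was chromosome 13, which gave 1305 of 57316 symbols, and members were matched by symbol to the other 3 tables. Every group had received interferon-β (1000 U/ml, 24 h), and no untreated cells were included. The knockout comparison set 1 SMYD3 knockout clone, labelled 5-3, against parental HN-6 (3 libraries each). SMYD3 was also lowered with 1 siRNA, si1SMYD3, against the siRNA control siNC (3 each), and with the antisense oligonucleotide ASO081 against PBS (2 each). UHRF1 was lowered with siUHRF1 against siNC samples of its own (3 each). The knockdowns lasted 72 h. Nothing in the labels says that the libraries of a group came from separate cultures, so the spread between them may be technical, and the knockout values describe 1 clone.

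Chromosome 13 is an acrocentric and comparatively gene-poor chromosome. It is known in cancer for RB1, the retinoblastoma brake on cell cycle entry, and it also carries BRCA2, the homologous recombination mediator, and the DLEU2 locus, the host of the miR-15a and miR-16-1 microRNAs. SMYD3 is a lysine methyltransferase. UHRF1 binds hemimethylated DNA and brings the maintenance DNA methyltransferase to it.

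Of the 1305 members, 505 had no read in any of the 22 libraries and 373 passed the filter on low values in at least 1 comparison. The knockout table listed 237 members, of which 233 were tested, 216 of them protein-coding. Tested members numbered 342 for SMYD3 siRNA, 327 for ASO081 and 322 for UHRF1 siRNA, and 226 members were tested in all 4. A member that passed only through the group in which it was high had to differ, so counts below describe tested members and not the whole chromosome. The proposal to look for low stretches was chosen by values of the knockout comparison, so the knockout values are given as a description, with no test. The stretches were defined from the knockout alone, and the other 3 comparisons were tested gene by gene. The proposal also asked for flatness in those 3, and earlier results of these data were known. Small changes of the members there are therefore not independent evidence.

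Over the 4 tables the depth per library lay between 24777802 and 62921144 reads in genes. SMYD3 was 322 ± 18.3 normalised reads in parental cells and 93.6 ± 18.5 in the clone (SD, n = 3 each). In the other tables it was 15.8 ± 1.95 and 2.72 ± 0.120 counts per 1000000 counts of the library (CPM) with siNC and SMYD3 siRNA (SD, n = 3 each), and 22.03 ± 0.966 and 3.65 ± 0.662 CPM with PBS and ASO081 (SD, n = 2 each). UHRF1 was 66.1 ± 2.03 CPM with siNC and 2.17 ± 0.428 CPM with its siRNA (SD, n = 3 each). The epithelial markers KRT5, TP63, EPCAM and CDH1 were detected in every group. KRT14 was low, with group means of at most 1.64 CPM in the 3 count tables and 16.9 and 51.9 normalised reads in parental cells and the clone. Group means of COL3A1, DCN, PTPRC and CD3E were at most 0.504 CPM in the 3 count tables and these genes had no row in the knockout table. The endothelial marker PECAM1 was at most 1.85 CPM, while COL1A1 and CDH5 were detected in every group.

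These 3 promoters are shown because the results turn on their genes. KCTD12 had no read in the clone, and RefSeq promoters matched 4 of the 6 interferon-responsive members, of which EPSTI1 and TNFSF13B had a window that held a pair of GAAA repeats as in an interferon-stimulated response element. Each sequence is the 250 bases before a transcription start, from RefSeq on GRCh38.p14, written 5′ to 3′ on the gene's strand. For KCTD12 (chr13:76886406-76886655, minus strand) capitals mark every CG.
KCTD12: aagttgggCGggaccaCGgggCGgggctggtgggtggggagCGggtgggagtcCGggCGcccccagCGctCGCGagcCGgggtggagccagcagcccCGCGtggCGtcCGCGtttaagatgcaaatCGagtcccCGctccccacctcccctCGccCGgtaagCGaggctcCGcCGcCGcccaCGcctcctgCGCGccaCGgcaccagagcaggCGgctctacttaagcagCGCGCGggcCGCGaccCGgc
EPSTI1 (chr13:42992242-42992491, minus strand) and TNFSF13B (the second of 2 listed starts, chr13:108269468-108269717, plus strand) are shown with 2 copies of GAAA and the 2 bases between them in capitals.
EPSTI1: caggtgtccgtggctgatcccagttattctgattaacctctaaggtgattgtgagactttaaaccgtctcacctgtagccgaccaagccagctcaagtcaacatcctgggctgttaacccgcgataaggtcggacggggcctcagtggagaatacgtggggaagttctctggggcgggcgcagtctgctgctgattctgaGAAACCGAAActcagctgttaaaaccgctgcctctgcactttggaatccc
TNFSF13B: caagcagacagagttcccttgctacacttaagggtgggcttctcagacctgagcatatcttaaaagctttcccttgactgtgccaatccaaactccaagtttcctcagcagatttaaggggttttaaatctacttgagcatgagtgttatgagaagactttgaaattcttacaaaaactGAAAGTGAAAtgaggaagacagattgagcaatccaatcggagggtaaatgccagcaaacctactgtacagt
The KCTD12 window held 34 CG pairs, against a median of 11 over 35116 promoters, and 6.84% of promoters held at least as many. Over the 198 members tested in the knockout with a listed promoter the median was 24.5. The GAAA motif was searched on both strands, as GAAA or TTTC repeated after 2 bases of any kind. It was present in 3.02% of all promoter windows and in 34 of 892 windows on chromosome 13 (3.81%). The windows of ELF1 (3 starts), SETDB2 and the other TNFSF13B start did not contain these letters. A match is a description of letters and not a binding site.

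Chromosome 13 did not move as a single block in the knockout clone. Over the 233 tested members the median log2 fold change was -0.32, against -0.02 over all 16947 genes and 0.12 over the 13604 of them with a position, and 91 members (39.1%) were lower by 0.5 or more on the log2 scale, where 34.4% of all genes and 28.4% of those with a position were. Another 48 members (20.6%) were higher by 0.5 or more, where 30.0% of all genes and 33.2% of those with a position were. The SD over members was 1.398 log2 units, against 1.35 over all genes. Upper-quartile scaling moved the median of all genes to -0.30, that of members to -0.60 and the split to 126 lower and 35 higher members, while the distance of members from all genes stayed at -0.31. Without parental replicate 2 the member median was -0.21. The members nearest the limit of -0.5 were CENPJ and UGGT2 inside it (-0.50 and -0.52) and NEK3 and VPS36 outside it (-0.50 and -0.48). All fold changes of this comparison are on the log2(value + 1) scale of a normalised read count, and in bulk RNA fewer cells with a transcript and less transcript per cell cannot be told apart.

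Interval medians along the chromosome differed in sign, and most intervals held genes of both signs. Among the 39 tested members between 20 and 30 Mb the knockout median was 0.42, and 14 of them were below 0. From 30 to 40, 40 to 50 and 50 to 60 Mb the medians were -0.48 (25 genes), -0.46 (50 genes) and -0.50 (19 genes), with 19, 37 and 14 genes below 0. Of all genes with a position, 45.3% were below 0. The interval from 70 to 80 Mb had a median of -0.44 (22 genes), and the sparse intervals from 60 to 70 and 80 to 90 Mb had medians of -1.72 and -0.41 over 4 and 5 genes. Beyond these, the medians were 0.03 from 90 to 100 Mb (20 genes), -0.33 from 100 to 110 Mb (17 genes) and -0.03 past 110 Mb (28 genes). Low genes were present outside the low intervals too: 11 of the 39 members from 20 to 30 Mb, 7 of 20 from 90 to 100 Mb, 7 of 17 from 100 to 110 Mb and 8 of 28 past 110 Mb were at -0.5 or less. These are 28.2%, 35%, 41.2% and 28.6%, where 28.4% of all genes with a position were as low. From 20 to 30 Mb and past 110 Mb the share was therefore near that of all genes with a position.

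**Figure D1:**
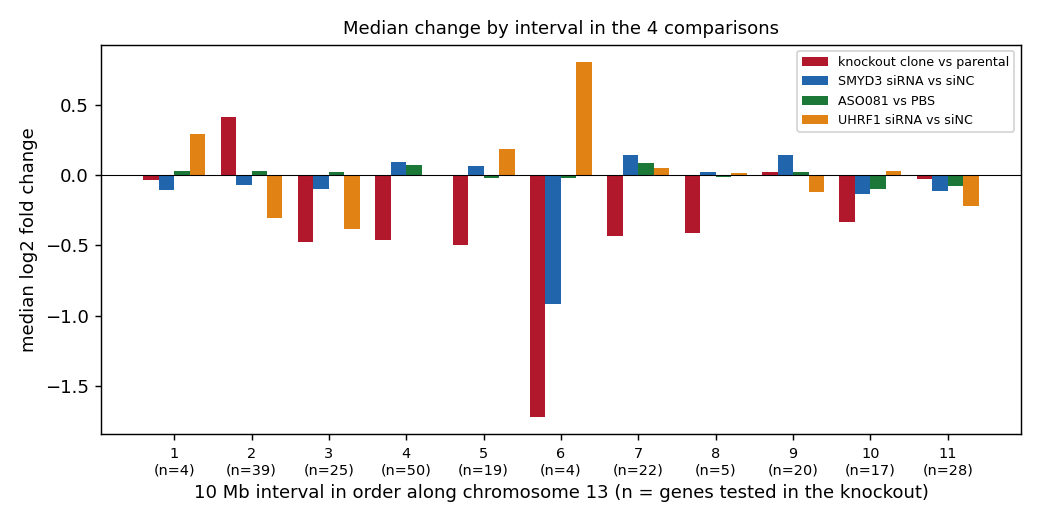
Median log2 fold change (vertical axis) in 11 successive intervals of 10 Mb along chromosome 13 (horizontal axis, with the number of genes tested in the knockout), with 1 bar for each of the 4 comparisons. The knockout bar is positive in interval 2 (0.42) and between -0.41 and -0.50 in intervals 3, 4, 5, 7 and 8, while interval 6 rests on 4 genes.

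With ASO081 the interval medians ran from -0.10 to 0.09. With SMYD3 siRNA they ran from -0.14 to 0.14, apart from -0.91 over 3 genes from 60 to 70 Mb. With UHRF1 siRNA they were -0.31 and -0.38 from 20 to 30 and from 30 to 40 Mb, so these intervals were not flat in that comparison. The median was 0.80 over 3 genes from 60 to 70 Mb, and the remaining medians ran from -0.22 to 0.29. From 20 to 30 Mb, 35 of 39 members were called with UHRF1 siRNA (89.7%, against 64.7% of all genes), 14 of them higher and 21 lower (32.0% and 32.7% of all genes). The intervals count only members that were also tested in the knockout. Of all such members, 79.3% of those at -0.5 or less in the knockout and 80.6% of the rest were called with UHRF1 siRNA.

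Chromosome 13 was not alone in its median. Chromosome 14 had a lower knockout median (-0.36 over 439 genes), chromosome 15 followed with -0.18, and chromosome 9 stood at the other end with 0.53. Matched by Ensembl identifier, the medians were -0.49 for chromosome 14 and -0.43 for chromosome 13 (293 genes). In the other 3 comparisons the chromosome 13 medians were 0.01 with SMYD3 siRNA, 0.00 with ASO081 and -0.07 with UHRF1 siRNA (-0.15 with no filter on low counts). Of 289 intervals of 10 Mb over the genome with at least 10 tested genes, 21 had a knockout median of -0.4 or less, and 4 of these were among the 8 such intervals on chromosome 13. The lowest of the 4, from 50 to 60 Mb, ranked 11 of 289. The lowest interval of all was on chromosome 6, from 160 Mb (-1.20 over 17 genes).

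The expression level of a gene also moved with its knockout change over the whole genome. When genes with a position were split into 3 groups of about equal size by their mean normalised read count, the medians of genes on other chromosomes were -0.58, 0.17 and 0.44 from the low to the high group, and those of chromosome 13 were -0.67 (82 genes), -0.30 (78 genes) and -0.05 (73 genes). Chromosome 13 was therefore lower than other chromosomes by 0.47 and 0.48 in the middle and high groups and by 0.09 in the low group. The part of expression level in the interval medians was not tested.

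A low stretch was defined as a run of genes at which the median of 15 neighbouring tested members was -0.5 or less. There were 10 low stretches with 44 genes in all, and the running median ranged from -0.93 to 0.70 over its 219 positions, 170 of which were below 0. The number of genes in stretches depended on the scale: it was 71 with edgeR on recovered reads, 136 with upper-quartile scaling, 121 with a limit of -0.3 and 89 when genes were matched by Ensembl identifier. The stretches of more than 3 genes were SLC25A15 to KBTBD6 (5 genes), MTRF1 to DNAJC15 (8 genes), CAB39L to WDFY2 (16 genes) and GGACT to TEX30 (6 genes). The others held 1 to 3 genes, at MAB21L1 to DCLK1, ALG5, SUPT20H, PCDH9, TM9SF2 to CLYBL and ZIC2. Some stretches were parted by only 1 tested member, so the 10 are not 10 separate regions. KBTBD7 (-0.75) lay between SLC25A15 to KBTBD6 and MTRF1 to DNAJC15, and EXOSC8 (-1.11) between ALG5 and SUPT20H. ZIC5 (-0.41) parted TM9SF2 to CLYBL from ZIC2, and PCCA (-0.93) parted ZIC2 from GGACT to TEX30. Stretches marked by a running median need not hold low genes. MAB21L1 to DCLK1, ALG5, SUPT20H, SLC25A15 to KBTBD6 and PCDH9 held no gene at -0.5 or less. The median of MAB21L1 to DCLK1 was 0.37. SLC25A15, a mitochondrial ornithine carrier, opened its stretch at 1.64 and DCLK1, a microtubule-binding kinase, closed its own at 1.22. Just outside the stretches, NBEA, MRPS31, TRPC4 and DHRS12 were as low as genes inside (-1.39, -1.28, -1.93 and -2.31), while UBAC2 and KDELC1 were near 0 (-0.05 and -0.10).

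**Figure D2:**
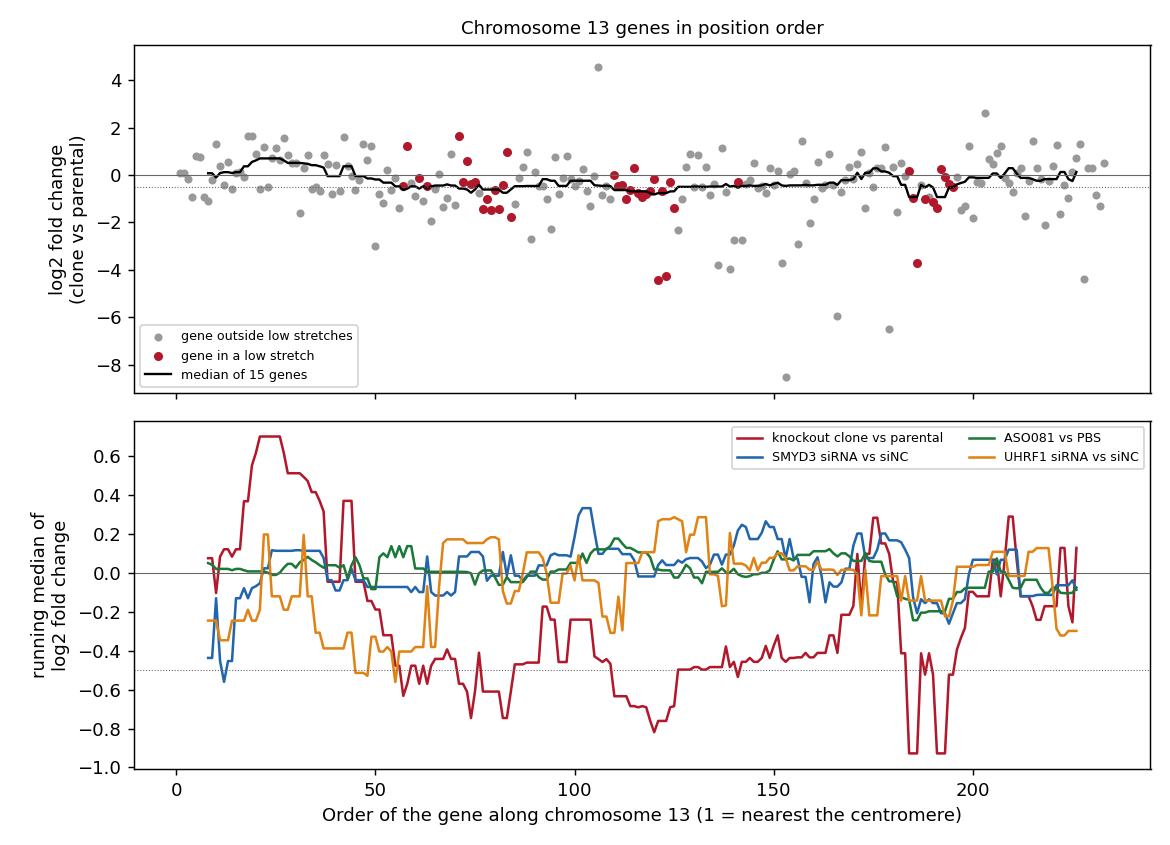
Upper panel: log2 fold change of each of the 233 tested members in the knockout (vertical axis) against its order along chromosome 13 (horizontal axis), with the median of 15 neighbouring genes as a line and genes of low stretches in red; the lowest point, KCTD12, had no read in the clone, so its height depends on the value of 1 added before the logarithm. Lower panel: running medians over the same order in the 4 comparisons, with the knockout line between 0.70 and -0.93.

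The longest stretch, CAB39L to WDFY2 (chr13:49308650-51767709, hg38), lies beyond RB1 and holds the DLEU genes. Its 16 genes had a knockout median of -0.69, with 14 below 0 and 10 at -0.5 or less. WDFY2, an endosomal scaffold protein, had 598, 614 and 550 normalised reads in the parental libraries and 219, 212 and 242 in the clone, a log2 fold change of -1.39 ± 0.08 (SE). RCBTB1, a BTB domain protein, had 909, 1004 and 992 normalised reads in parental cells and 449, 514 and 475 in the clone (-1.01 ± 0.07, SE). The 2 groups did not overlap for either gene. RNASEH2B, a subunit of ribonuclease H2, was at -0.69, SPRYD7 at -0.76 and EBPL at -0.63. CAB39L, an adaptor of the LKB1 complex, and KPNA3, an importin, were not lower (0.00 and 0.31). The 2 lowest values came from few reads: GUCY1B2 had 17, 18 and 20 reads in the parental libraries and none in the clone, at least 5.40-fold lower when 3 reads per library stand for 0, and the small RNA RF02104 averaged 39.4 and 1.74 normalised reads. DLEU1, DLEU2, TRIM13 and KCNRG overlap or adjoin one another, and whether the counting used strand is not given in the sources used here, so reads of antisense partners may not be told apart.

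The other comparisons tested 14 of these 16 genes. Their medians were 0.02 with SMYD3 siRNA, 0.09 with ASO081 and 0.14 with UHRF1 siRNA, and 9, 11 and 8 of the 14 lay within 0.3 of 0. WDFY2 was 0.14 with SMYD3 siRNA and -0.07 with ASO081, and RCBTB1 was -0.12 and -0.05, and none of these 4 values passed the edgeR test. Of the 14, 6 (42.9%), 2 (14.3%) and 10 (71.4%) were called, where 48.6%, 21.7% and 64.7% of all genes were. Of members tested in the knockout but outside the low stretches, 60.5%, 24.9% and 80.4% were called. CAB39L rose with SMYD3 siRNA, from 10.4, 10.5 and 9.497 CPM to 18.9, 18.1 and 18.5 CPM (log2 fold change 0.99 ± 0.09, SE; edgeR adjusted p = 4.2e-07), and fell with ASO081 (-0.42 ± 0.11, SE; edgeR adjusted p = 0.013), a call that DESeq2 did not make. DLEU2 fell with UHRF1 siRNA, from 10.4, 11.7 and 12.7 CPM to 2.17, 2.29 and 2.14 CPM (-2.33 ± 0.12, SE; edgeR adjusted p = 5.8e-24).

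**Figure D3:**
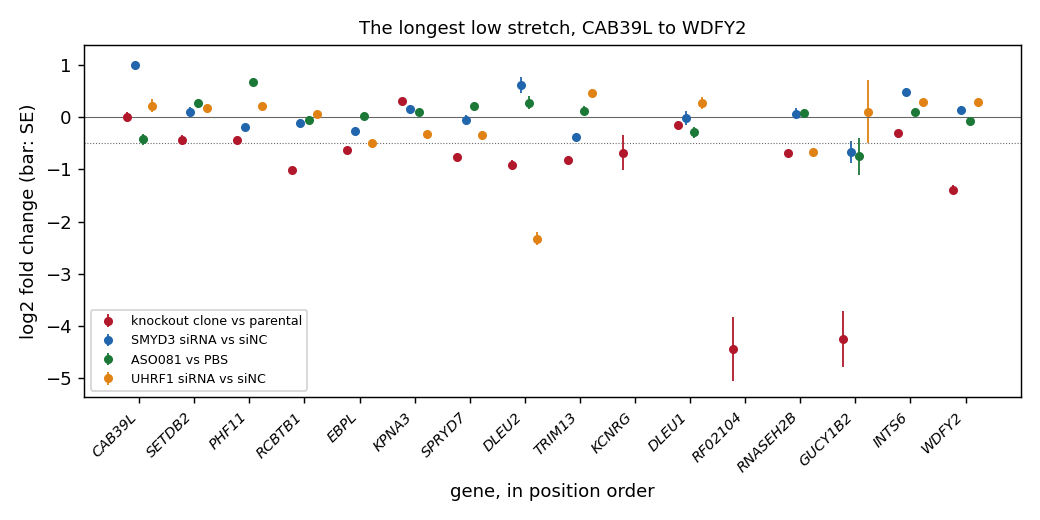
Log2 fold change with its SE (vertical axis) for the 16 genes of the longest low stretch in position order (horizontal axis), coloured by comparison. The knockout points are below 0 for 14 genes, but the stretch was defined by low knockout values, so this follows from the choice. Points of the other 3 comparisons, which did not define the stretch, scatter on both sides of 0. KCNRG and RF02104 were tested in the knockout alone.

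The stretch from MTRF1 to DNAJC15 (chr13:41216369-43114213) had the lowest median of the stretches with more than 3 genes, -1.22 over 8 genes, with 7 below 0. MTRF1, a mitochondrial translation release factor, had 836, 939 and 959 normalised reads in parental cells and 316, 318 and 367 in the clone (-1.45 ± 0.08, SE). DGKH, a diacylglycerol kinase, averaged 2118 and 785 normalised reads (-1.43 ± 0.07, SE), and DNAJC15, a mitochondrial co-chaperone, 245 and 71.5 (-1.76). The exception was EPSTI1, an interferon-responsive gene described below, at 0.96. The other medians of this stretch were 0.17, -0.08 and 0.05 with SMYD3 siRNA, ASO081 and UHRF1 siRNA, with 2, 4 and 7 of 8 genes called (48.6%, 21.7% and 64.7% of all genes). In GGACT to TEX30, by contrast, the medians were -0.46 in the knockout and -0.33, -0.22 and -0.31 in the other 3. This stretch was therefore not low in the clone alone. In SLC25A15 to KBTBD6 they were -0.29 in the knockout and -0.12, 0.09 and 0.17 in the other 3. Over all 10 low stretches the other 3 medians were 0.02, 0.05 and -0.02 (42 genes each). Of these genes, 42.9%, 33.3% and 78.6% were called, against 60.5%, 24.9% and 80.4% of knockout members outside the stretches. Within 0.3 of 0 lay 59.5%, 66.7% and 35.7% of them, against 52.4%, 82.7% and 31.5% outside. No test of the difference between comparisons was made, since they come from separately normalised tables.

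Counted gene by gene, 14 of the 226 members tested in all 4 comparisons (6.19%) were at -0.5 or less in the knockout and within 0.3 of 0 in each of the other 3, where 4.10% of 12997 genes were. The count was 26 with upper-quartile scaling of the knockout and 5 when flat meant within 0.2. The 14 genes, named after their values were seen, were ZMYM2, STARD13, MRPS31, KBTBD7, VWA8, TPT1, RCBTB1, WDFY2, LMO7, POU4F1, RBM26, UGGT2, ARGLU1 and UPF3A. They were spread over the chromosome, from ZMYM2 (start at 19958670) to UPF3A (start at 114281601), and 3 of them (VWA8, RCBTB1 and WDFY2) lay in low stretches. Being flat in the other 3 was no more common among members that were lower in the knockout (16.1% of 87) than among the rest (18.7%), and 19.7% of all genes were flat.

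TPT1 weighs most among these, as the most abundant member. It encodes the translationally controlled tumour protein and has near-identical copies elsewhere, so its reads are uncertain. It had 44775, 45749 and 44333 normalised reads in parental cells and 22924, 22722 and 21692 in the clone (-1.002 ± 0.03, SE). ARGLU1, a regulator of splicing and transcription, had 8568, 8919 and 8666 normalised reads in parental cells and 2528, 2483 and 2459 in the clone (-1.81 ± 0.04, SE). LMO7, a scaffold of adherens junctions, had 725, 760 and 719 normalised reads against 50.6, 49.1 and 69.9 (-3.69 ± 0.12, SE). In all 3 genes the parental and clone libraries were far apart and did not overlap. LMO7 was 0.03 with ASO081 and 0.18 with UHRF1 siRNA, and with SMYD3 siRNA it was -0.29 (edgeR adjusted p = 0.012), a call lost when SMYD3 siRNA replicate 2 (-0.21) or 3 (-0.25) was left out.

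The share of reads gives the same set as a sum. Over 13800 symbols shared by the 4 tables, without mitochondrial genes, the 237 listed members took 1.13%, 1.16% and 1.12% of reads in the clone and 1.48%, 1.53% and 1.497% in parental cells. The 19 libraries outside the clone ranged from 1.43% to 1.65%, so the 3 clone libraries lay below all of them, with the reservation that levels across tables were counted separately. The clone mean was lower than the parental mean by 0.365 points. Without TPT1 the clone share was 1.07% ± 0.0180 and the parental share 1.33% ± 0.0198 (SD, n = 3 each). The share was 1.47% ± 0.0339 with siNC and 1.51% ± 0.0613 with SMYD3 siRNA (SD, n = 3 each), and the exact permutation test of that difference gave p = 0.60 (two-sided), with 0.10 the smallest that 3 against 3 allows. With PBS and ASO081 it was 1.47% and 1.48% (n = 2 each), where the exact permutation test cannot go below 0.3333. With UHRF1 siRNA it went from 1.63% ± 0.0182 to 1.55% ± 0.000821 (SD, n = 3 each), with no overlap between the groups and the smallest possible p of the exact permutation test, 0.10 (two-sided).

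**Figure D4:**
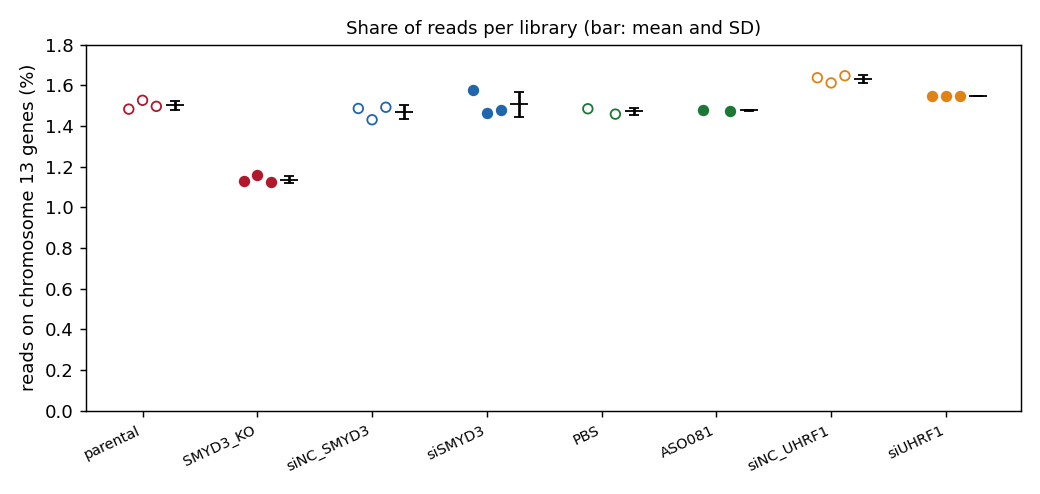
Percent of reads on chromosome 13 genes (vertical axis, from 0) in each of the 22 libraries by group (horizontal axis), with open circles for controls, filled circles for depleted groups and a bar for the mean and SD. The 3 clone libraries lie between 1.12% and 1.16%, and the other 19 between 1.43% and 1.65%.

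The knockout table differs between its groups in other ways. Mitochondrial genes took 15.3% ± 0.402 of reads in parental cells and 4.85% ± 0.0345 in the clone (SD, n = 3 each), and the part of this difference in the chromosome 13 values was not tested. With mitochondrial genes counted in the total, the difference in the chromosome 13 share was -0.184 points. Within the shared symbols, members from 40 to 50 Mb went from 3976 ± 83.6 to 2023 ± 49.1 reads per 1000000 (SD, n = 3 each). Those from 20 to 30 Mb went from 2276 ± 33.2 to 2425 ± 32.4. The sum from 40 to 50 Mb includes TPT1, the most abundant member, whose reads are uncertain, and it was not taken without TPT1. How much of the fall rests on that gene is therefore not given.

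The lowest value in the clone belonged to KCTD12, whose CG-rich promoter is printed above. It encodes an auxiliary subunit of GABA-B receptors. Its parental libraries held 285, 409 and 452 reads, and the 3 clone libraries held none, which is at least 110-fold lower when 3 reads per library stand for 0. On one side its nearest tested member was LMO7 (-3.69). The reverse case was LPAR6, a lysophosphatidic acid receptor, with no read in the parental libraries and 23, 27 and 20 reads in the clone, at least 5.31-fold higher. KCTD12 was present with SMYD3 siRNA (4.66, 3.00 and 3.23 CPM against 5.42, 4.75 and 4.95 with siNC; log2 fold change -0.36, edgeR adjusted p = 0.055) and with ASO081 (7.02 and 7.18 CPM against 7.70 and 7.93; edgeR adjusted p = 0.69). The siRNA value passed the threshold with upper-quartile scaling, with no filter, with replicate numbers as a block (-0.36) and without SMYD3 siRNA replicate 1 (-0.52). It fell with UHRF1 siRNA (-0.65 ± 0.19, SE; edgeR adjusted p = 0.0020).

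FARP1 was next, and it was lower in all 4 comparisons. FARP1 is a guanine nucleotide exchange factor of dendrites. It had 908, 913 and 890 normalised reads in parental cells and 8.92, 10.4 and 7.63 in the clone (-6.51 ± 0.14, SE). With SMYD3 siRNA it fell from 22.7, 21.5 and 21.8 to 12.04, 14.3 and 13.7 CPM (-0.59 ± 0.09, SE; edgeR adjusted p = 0.00011), with ASO081 from 51.3 and 52.6 to 38.4 and 38.8 CPM (-0.36 ± 0.06, SE; edgeR adjusted p = 0.0011), and with UHRF1 siRNA by 0.82 on the log2 scale (edgeR adjusted p = 1.4e-09). CLYBL, a mitochondrial citramalyl-CoA lyase, was also low in the clone (151, 107 and 112 against 8.92, 7.44 and 8.90 normalised reads) and rose with UHRF1 siRNA (0.74 ± 0.21, SE; edgeR adjusted p = 0.0014). The other members of at least 50 normalised reads with the lowest values in the knockout were GAS6-AS1 (-4.39), N4BP2L1 (-2.999), AC001226.1 (-2.92), DHRS12 (-2.31), TPT1-AS1 (-2.27) and MCF2L (-2.10). GAS6-AS1 and TPT1-AS1 are antisense to GAS6 and TPT1, and their reads may not be told apart from those of the sense gene.

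High values in the knockout included TNFSF13B (2.60), TNFRSF19 (1.65), SLC25A15 (1.64) and SLC7A1 (1.62). SLC7A1, the cationic amino acid transporter CAT1, had 1413, 1475 and 1432 normalised reads in parental cells and 4448, 4566 and 4313 in the clone. It rose with SMYD3 siRNA (0.27; edgeR adjusted p = 0.020) and was not called with ASO081 (-0.03). TNFRSF19, a receptor of the TNF receptor family, fell with SMYD3 siRNA (-0.81 ± 0.13, SE; edgeR adjusted p = 0.00011) and was 0.00 with ASO081.

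In the 3 comparisons that the search for stretches did not use, chromosome 13 was called about as often as other genes with SMYD3 siRNA and ASO081. With SMYD3 siRNA 169 of 342 members were called (49.4%, against 48.6% of all genes), 86 higher and 83 lower, where 24.2% and 24.4% of all genes were called higher and lower. With ASO081 70 of 327 were called (21.4%, against 21.7%), 36 higher and 34 lower, with 11.3% and 10.3% over all genes. DESeq2 called 44 members with ASO081, and edgeR with replicate numbers as a block called 130. With UHRF1 siRNA 222 of 322 were called (68.9%, against 64.7%), 103 higher and 119 lower, with 32.0% and 32.7% over all genes. The quartiles of the members' log2 fold changes were -0.28 and 0.34 with SMYD3 siRNA, -0.19 and 0.17 with ASO081, and -0.53 and 0.45 with UHRF1 siRNA.

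Of the interferon-responsive members, most were called higher with ASO081 and UHRF1 siRNA. Their list was chosen with earlier results of these data known, so its counts describe the listed genes and are not a test of the group. Of the 6 (ELF1, EPSTI1, SETDB2, PHF11, TRIM13 and TNFSF13B), 4 were called higher with ASO081 and 5 with UHRF1 siRNA and none lower, with medians of 0.51 and 0.42, where 11.3% and 32.0% of all genes were called higher. They compare with 1 higher (TNFSF13B) and 1 lower (TRIM13, -0.38) with SMYD3 siRNA, where 24.2% and 24.4% of all genes were. TNFSF13B, the B-cell activating factor BAFF, was higher in all 4. It had 37.7, 36.1 and 50.8 normalised reads in parental cells and 260, 281 and 222 in the clone. With SMYD3 siRNA it went from 18.9, 16.3 and 16.4 to 52.0, 39.4 and 35.8 CPM (1.42 ± 0.11, SE; edgeR adjusted p = 1.7e-07), with ASO081 from 4.37 and 3.03 to 11.9 and 10.4 CPM (1.66 ± 0.15, SE; edgeR adjusted p = 8.6e-06), and with UHRF1 siRNA by 1.03 ± 0.10 (SE; edgeR adjusted p = 1.2e-13). The control and depleted libraries of TNFSF13B did not overlap in any of the 4.

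EPSTI1, an interferon-induced gene first described in breast epithelial-stromal interaction, split the SMYD3 depletions. It had 1904, 2598 and 2330 normalised reads in parental cells and 4496, 4378 and 4349 in the clone (0.96 ± 0.11, SE). With ASO081 it rose from 127 and 126 to 253 and 249 CPM (1.05 ± 0.06, SE; edgeR adjusted p = 4.2e-08) and with UHRF1 siRNA by 0.37 (edgeR adjusted p = 3e-09), whereas with SMYD3 siRNA it was -0.12 (324, 338 and 332 CPM with siNC, against 312, 272 and 255) and was not called. PHF11, a PHD finger protein, rose with ASO081 (0.68 ± 0.07, SE; edgeR adjusted p = 1.8e-05), and so did the ETS factor ELF1 (0.34 ± 0.06, SE; edgeR adjusted p = 0.00095). In the knockout PHF11 was at -0.43 and ELF1 at 0.60. Over the 6 interferon-responsive members the knockout median was 0.085, with 3 at 0.5 or more and 1 at -0.5 or less. Of all tested members, 20.6% and 39.1% were.

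**Figure D5:**
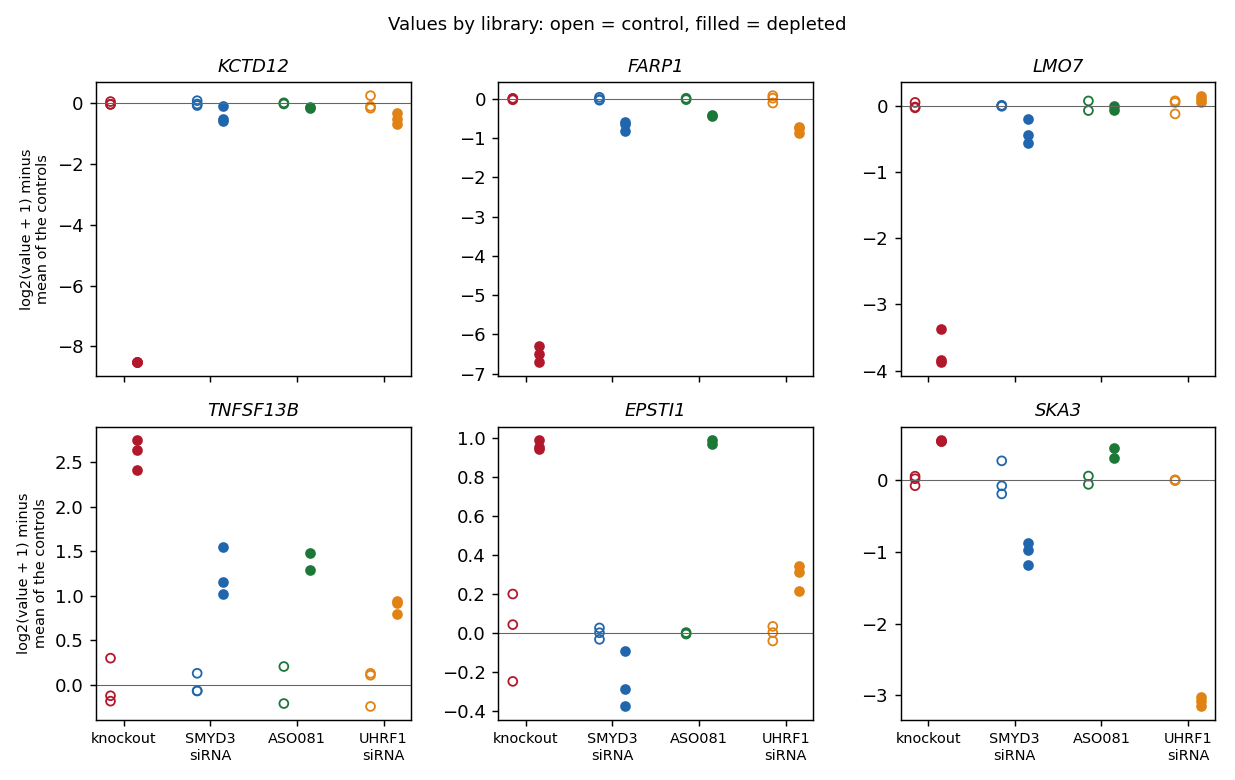
Log2 of the value plus 1, minus the mean of the controls (vertical axis), for 6 members in the 22 libraries of the 4 comparisons (horizontal axis), with open circles for controls and filled circles for depleted groups. Values are normalised reads in the knockout and CPM elsewhere. KCTD12 and LMO7 are low in the clone and near the controls with ASO081, FARP1 is lower and TNFSF13B higher in all 4 comparisons, and SKA3 is lowest with UHRF1 siRNA.

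Of 17 tested cell cycle and DNA repair genes, 12 were called lower and 4 higher with UHRF1 siRNA, where 32.7% and 32.0% of all genes were. Their median log2 fold change was -0.67, against a median of -0.01 over all genes. This list was also chosen with earlier results of these data known, so its counts are a description. SKA3, which couples kinetochores to microtubules, fell from 25.3, 25.2 and 25.1 to 2.22, 2.09 and 1.94 CPM (-3.52 ± 0.10, SE; edgeR adjusted p = 1.4e-35). RFC3, a clamp loader subunit, fell by 2.49, DIAPH3, a formin of the contractile ring, by 2.24, and BRCA2 by 1.02 on the log2 scale (edgeR adjusted p = 7.8e-33, 1.1e-35 and 4.2e-21). With SMYD3 siRNA 2 were called higher and 5 lower, SKA3 among the latter (-1.31 ± 0.18, SE; edgeR adjusted p = 4.1e-05), and with ASO081 3 were called higher and 1 lower, with SKA3 higher (0.46 ± 0.08, SE; edgeR adjusted p = 0.0015). Over all genes, 24.2% and 24.4% were called higher and lower with SMYD3 siRNA, and 11.3% and 10.3% with ASO081. In the knockout RB1 was flat (1897, 2066 and 1924 against 1867, 2067 and 1789 normalised reads). There BRCA2 was at 1.22 and ERCC5, a nucleotide excision repair endonuclease, at -1.32. The ERCC5 row held 4004 normalised reads in parental cells but 6.81 CPM with PBS, so its counting may differ between tables.

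Genes of gene expression and translation had a knockout median of -0.45 over 16 members, with 7 at -0.5 or less. Of all tested members, whose median was -0.32, 39.1% were as low, so this group and those that follow are described without being set apart. EXOSC8, an exosome subunit, was at -1.11, and PAN3, of the deadenylase complex, at -0.80, beside MTRF1, MRPS31 and TPT1 above. RPL21 was at 0.83, but it has many near-identical copies and is uncertain. With SMYD3 siRNA 4 were called higher and 6 lower (24.2% and 24.4% of all genes), with ASO081 2 higher and none lower (11.3% and 10.3%), and with UHRF1 siRNA 5 higher and 9 lower (32.0% and 32.7%).

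Metabolism and membrane traffic showed a knockout median of -0.48 over 11 members, with 5 at -0.5 or less and none at 0.5 or more, against 39.1% and 20.6% of all tested members. COG6 and COG3, subunits of the Golgi tethering complex COG, were at -0.99 and -0.78, and PCCA, of propionyl-CoA carboxylase, at -0.93. The same group had medians of 0.10, 0.01 and 0.29 in the other 3 comparisons, with 1, 2 and 2 members called lower (24.4%, 10.3% and 32.7% of all genes) and 3, 1 and 6 called higher (24.2%, 11.3% and 32.0%). COG6 and COG3 rose with UHRF1 siRNA (0.82 and 0.62).

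Matrix, adhesion and cytoskeleton genes had a knockout median of 0.76 over 9 tested members, with 5 at 0.5 or more (20.6% of all tested members). COL4A1 and COL4A2, the paired basement membrane collagens near the end of the chromosome, were at 0.91 and 1.22, and COL4A2 had 5898, 5393 and 5749 normalised reads in parental cells and 13067, 13202 and 13431 in the clone. LMO7 and the protocadherin PCDH17 were the 2 low members (-3.69 and -3.78). In the other comparisons the group's medians were -0.16, -0.08 and -0.29.

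Receptors, ligands and signal regulators had a knockout median of 0.36 over 12 tested members, with 2 at -0.5 or less (DGKH and HMGB1) and 3 at 0.5 or more. Of all tested members, 39.1% and 20.6% were. EFNB2, the ephrin-B2 ligand, was higher in the clone (2728 against 6453 normalised reads on average, 1.24 ± 0.04, SE) and fell with SMYD3 siRNA (-0.58 ± 0.08, SE; edgeR adjusted p = 2.5e-05). HMGB1, a chromatin protein that also acts as an alarmin, was at -0.61 in the clone, fell with SMYD3 siRNA (-0.74 ± 0.09, SE; edgeR adjusted p = 7.5e-06) and fell with UHRF1 siRNA (-1.83 ± 0.06, SE; edgeR adjusted p = 2.4e-31). HMGB1 has processed copies elsewhere in the genome, and its reads are uncertain. Its row held 19255 normalised reads in parental cells but 72.3 CPM with siNC of the SMYD3 siRNA table and 225 CPM with PBS, so its counting may differ between tables, as may that of RPL21.

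Transcription factors had a knockout median of -0.60 over 8 tested members. DACH1 and POU4F1 were at -2.74 and -1.02 and FOXO1 at 0.87. The neighbouring zinc finger genes ZIC2 and ZIC5 fell with UHRF1 siRNA (-2.41 ± 0.21 and -3.07 ± 0.31, SE; edgeR adjusted p = 9.1e-15 and 3.6e-12) and with SMYD3 siRNA (-1.29 and -1.49), and ZIC2 was at -0.99 in the clone. With ASO081 1 of the 8 tested members was called, lower, where 10.3% of all genes were called lower.

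Transporters and membrane proteins had a median of 0.15 in the knockout, with 3 of 13 at -0.5 or less and 6 at 0.5 or more, against 39.1% and 20.6% of all tested members. LAMP1, a lysosomal membrane glycoprotein, averaged 5066 and 12097 normalised reads (1.26 ± 0.03, SE) and rose with SMYD3 siRNA (1.10 ± 0.10, SE; edgeR adjusted p = 6.5e-07). The list labelled ubiquitin and proteolysis had a knockout median of -0.12 over 14 members. They ran from KCTD12, which was listed there though described above as a receptor subunit, to MYCBP2, a ubiquitin ligase, at 1.45. Of the noncoding hosts, DLEU2 was at -0.92 and MIR17HG, the host of the miR-17-92 cluster, at 0.34 in the clone, and both fell with UHRF1 siRNA (-2.33 and -1.86). PARP4, the most abundant member from 20 to 30 Mb in PBS cells and a component of vault particles, was at 1.16 in the clone and rose with UHRF1 siRNA (1.00 ± 0.05, SE; edgeR adjusted p = 1.4e-24).

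The members with the largest called changes outside the knockout were mostly scarce. With SMYD3 siRNA they were SP3P (2.46), the growth factor gene FGF14 (2.39) and LINC00565 (2.05), all below 0.5 CPM in siNC on average. With ASO081 they were LINC00364 (1.82), TNFSF13B and AL442128.1 (1.398), the last a call lost without PBS replicate 1. With UHRF1 siRNA they were AL445604.1 (-5.15, at 0.489 CPM in siNC), SKA3 and AL161891.1 (-3.16). Of these 9 members, 7 were not tested in the knockout.

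Members that were lower in the knockout had promoter and exon features close to those of the rest. The 91 members at -0.5 or less had a median exon length of 5401 bases against 5263.5 for the other 142, and a median of 24 CG pairs in the 250 bases before the start against 25, over the 84.6% and 85.2% with a listed promoter. They were less abundant: the median in PBS libraries was 3.63 CPM per kilobase of exon against 7.62. In the other comparisons, 87 of the 91 were tested, with medians of -0.09, -0.02 and -0.12 with SMYD3 siRNA, ASO081 and UHRF1 siRNA, against 0.08, 0.05 and -0.02 for the rest.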

How the data were processed

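The libraries were stranded mRNA RNA-seq of HN-6 cells, per the labels' protocols. The submitters' processing notes name hg38, bcl2fastq and Bowtie, with no versions. How reads were assigned to genes, and the strand setting, is not given in the labels or headers. The knockout table holds a signal per gene that the authors deposited after dividing gene counts by 1 factor per library, and whole reads were recovered for 100% of its values within 0.01 (edgeR on these reads called 14439 of 16947 genes). The other 3 tables hold raw counts per gene, per the file headers and values, deposited by the authors.

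Of the lines for SMYD3 siRNA, 23538 had no symbol (0.8793% of reads), of which 19999 were named by Ensembl identifier. The knockout was fitted with limma 3.58.1 (trend and robust) on log2(value + 1), after keeping genes that reached 10 in 3 or more libraries. The counts were fitted with the quasi-likelihood test of edgeR 4.0.16 (TMM, filterByExpr), with Benjamini-Hochberg adjustment over all genes tested and a call below 0.05. DESeq2 1.42.0 was an alternative. R 4.3.3 and Python 3.11.15 were used. CPM is reads per 1000000 of the library's total. The procedures were tested on simulated data.

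The members and gene lists were chosen with earlier results of these data known. Named genes are members of role lists, the 10 lowest and 5 highest in the knockout with a mean of 50 or more, the 3 largest called changes elsewhere, genes at stretch ends, the most abundant gene of an interval, and genes with no read in a knockout group. Some genes that this rule selects are not reported here. Other genes of the stretches and those named as lower and flat were chosen after their values were seen. Alternatives were other scalings, filters, pseudocounts, tools and windows, and leaving out each library. Counting error alone is covered by the floor of 3 reads.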

Additional observations from a re-analysis of the deposited data

Results flagged for a closer look

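SOX1, a neural transcription factor gene near the end of chromosome 13, moved in opposite directions in the knockout clone and with SMYD3 siRNA. It had 49.0, 23.8 and 16.9 normalised reads in parental cells and 77.3, 77.4 and 69.9 in the clone (log2 fold change 1.43). With siNC it had 0.551, 0.462 and 0.314 CPM and with SMYD3 siRNA 0.105, 0.127 and 0.148 CPM (-1.61). The SMYD3 siRNA value minus the knockout value was -3.05 on the log2 scale. Every library of the depleted groups lay on its own side of the controls, but the difference between the comparisons was not tested, and the siRNA levels rest on few reads.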

How the results depend on the processing

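The knockout median of chromosome 13 (-0.32) stayed below 0 under every alternative run: -0.24 when every library had to reach 10, -0.36 with edgeR on recovered reads, -0.60 with upper-quartile scaling, -0.43 with members matched by Ensembl identifier, and -0.34 to -0.21 when a library was left out. Its distance from the median of all genes ran from -0.34 to -0.27 over the alternatives matched by symbol. The 44 genes in low stretches became 71 with edgeR on recovered reads, 136 with upper-quartile scaling, 121 with a running median limit of -0.3 and 89 with Ensembl identifiers, and 31 to 58 when a library was left out. The 14 lower and flat genes became 26 with upper-quartile scaling and 5 when flat meant within 0.2. The cause was not tested. The chromosome 13 share of reads differed by -0.365 points, by -0.184 with mitochondrial genes in the total and by -0.257 without TPT1. The UHRF1 siRNA median (-0.07) was -0.15 with no filter and -0.134 to -0.0715 when a library was left out. ASO calls fell from 70 to 44 with DESeq2.

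Samples share replicate numbers. In the comparisons with 3 pairs their deviations did not pair them (same-number correlations from -0.09 to 0.32), and the 2 ASO pairs (0.23 each) are too few to tell. With the replicate block the ASO count was 130, KCTD12 passed the threshold with SMYD3 siRNA (-0.36), and the knockout, SMYD3 siRNA and UHRF1 siRNA medians were -0.32, 0.01 and -0.07. Among single named genes 629 values were labelled the same, 40 moved in size but kept their sign, 4 became stronger and 4 weaker, and none reversed.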
